A study of Mus musculus with 8 samples.

Results

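The genes described here are 32 markers of macrophages, measured in 8 primary mouse osteosarcomas. They were chosen by symbol, as the probe sets annotated with a single gene symbol on the member list, and each of the 32 was read by 1 probe set. They are 32 of 19938 genes on the array that could be named in this way. Osteosarcoma is a bone cancer whose cells lay down bone matrix. Of the 8 tumours, 4 came from the shRNA OS model, in which p53 was targeted by a short hairpin RNA transgene (genotype P53.1224), and 4 from the Cre:lox OS model, with floxed p53 alleles (genotype P53fl/fl). All came from C57Bl6 mice, and the labels give no age and neither the promoter of the transgene nor the driver of Cre. Among the shRNA OS tumours, replicates 1 and 3 were tibial and Rbfl/+ (1 floxed and 1 normal Rb allele), replicate 2 was tibial and Rb+/+, and replicate 4 was humeral and Rbfl/+. Among the Cre:lox OS tumours, replicates 3 and 4 were tibial and Rbfl/+, replicate 2 was humeral and Rbfl/+, and replicate 1 was scapular and Rb+/+. The numbers name tumours and have no order.

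Macrophages are phagocytes that descend from embryonic progenitors or from blood monocytes, and in bone and bone tumours they lie beside osteoclasts, which arise from the same precursors. Their development depends on the transcription factor PU.1 and on CSF1 acting through its receptor. They clear dying cells and opsonised particles through scavenger receptors, Fc receptors and complement, and in tumours they can make up much of the non-malignant tissue. In RNA from whole tumour pieces, fewer macrophages and less of a transcript per macrophage cannot be told apart.

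Values are log2 expression levels as deposited, and differences are differences of log2 values. Array medians lay between 7.13 and 7.23. The array that correlated least with the others was shRNA OS replicate 2, at 0.941 on average, where the remaining arrays averaged 0.961 to 0.968. Its values also spread least, with an interquartile range of 2.59, against 2.79 to 3.19 in the remaining arrays. Of the 32 macrophage genes, 28 lay above the highest array median in every tumour. Aif1, Cd14 and Siglec1 did so in some tumours, and Cd163, a haemoglobin scavenger receptor, in none (6.08 to 6.90).

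The macrophage genes varied more between tumours than most genes, and most of them varied together. Their SD over the 8 tumours had a median of 0.88, against 0.27 over all genes, and 29 of 32 exceeded that median. With each gene centred on its own mean, the mean of the 32 genes was 0.59, -0.61, -0.40 and -0.98 across shRNA OS tumours 1 to 4, and -0.34, 0.02, 0.81 and 0.91 across Cre:lox OS tumours 1 to 4. The level was thus high in shRNA OS replicate 1 and in Cre:lox OS replicates 3 and 4, all tibial and Rbfl/+, while shRNA OS replicate 3, also tibial and Rbfl/+, lay below the mean. For 21 of the 32 genes these were the 3 tumours with the highest values. The humeral shRNA OS replicate 4 was the lowest tumour for 22 genes and Cre:lox OS replicate 4 the highest for 18. The SD of the mean level was 0.67 over the 4 shRNA OS tumours and 0.61 over the 4 Cre:lox OS tumours.

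**Figure D1:**
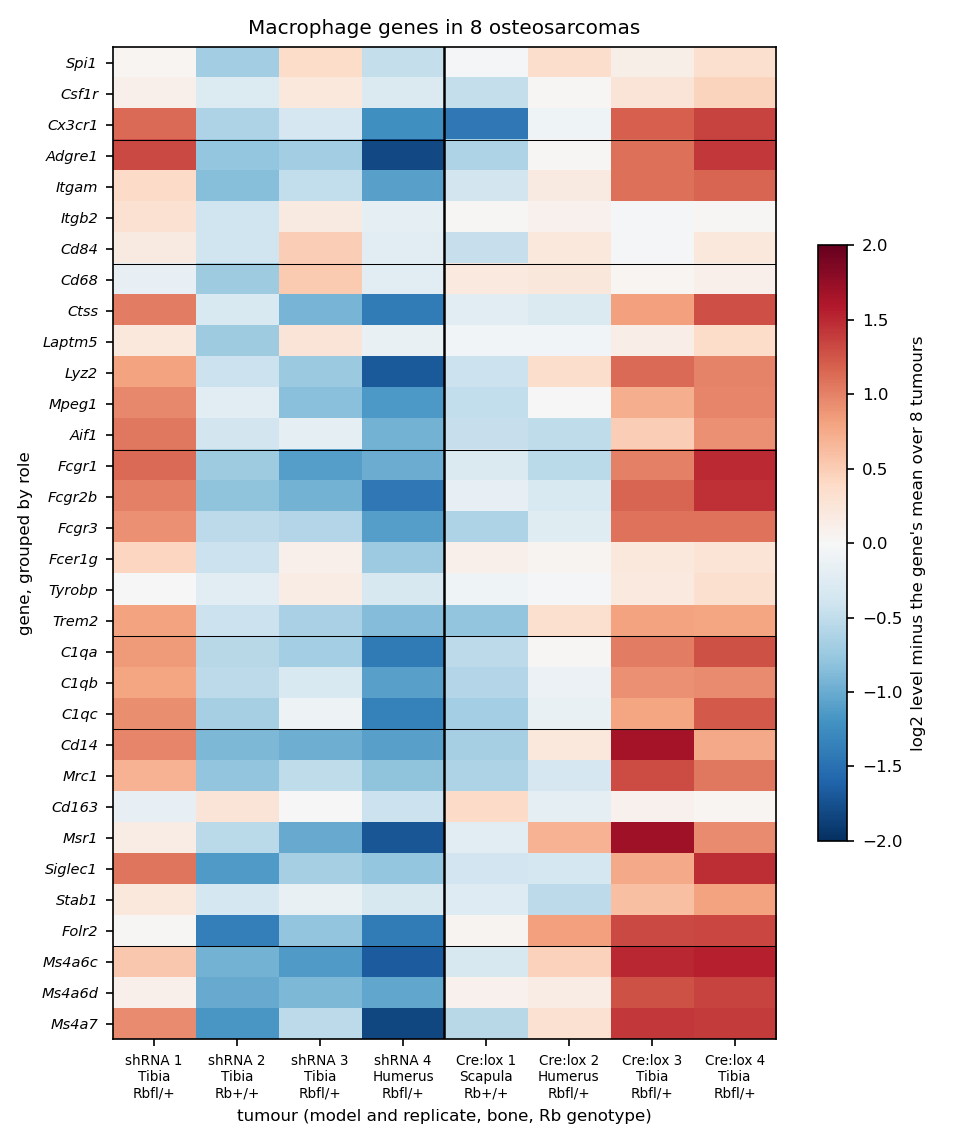
Log2 level of each of the 32 macrophage genes (rows, grouped by role) in each of the 8 tumours (columns, shRNA OS left of Cre:lox OS), centred on the gene's mean over the 8 tumours. shRNA OS replicate 1 and Cre:lox OS replicates 3 and 4 are the 3 highest tumours for 21 of the genes, and shRNA OS replicate 4 is the lowest for 22.

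The genes formed a widely varying set and a less variable set when split at an SD of 0.5, a split made after the values were seen and given as a description. The 22 widely varying genes had SDs of 0.73 to 1.21 and spanned 1.67 to 3.42 between the lowest and the highest tumour. The correlation of each with the mean of the other macrophage genes over the 8 tumours was 0.87 to 0.99, and 19 of the 22 had the same 3 highest tumours. The 10 less variable genes were Spi1, Csf1r, Itgb2, Cd84, Cd68, Laptm5, Fcer1g, Tyrobp, Cd163 and Stab1. Their SDs were 0.22 to 0.48 and their spans 0.64 to 1.33, and 7 of the 10 still had an SD above the median of all genes, the exceptions being Itgb2, Tyrobp and Cd163. Their correlations with the other genes were 0.10 to 0.84, and 2 of the 10 had those 3 highest tumours. Points of one tumour share its array in all of these correlations.

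Promoter windows from RefSeq (build GRCm38.p6), reaching from 250 bases before to 50 bases after a transcription start, were at hand for 22 of the 32 genes, in 25 windows. The letters GAGGAA, the core that PU.1 is known to bind, occurred on either strand in 15 of these 25 windows (60%), belonging to 14 genes, and in 28.3% of 32851 windows of all genes. The letters TGANTCA, the AP-1 site, occurred in 5 of 25 windows (20%), against 7.81% of all. Matches of each motif were counted without regard to the other. The windows of Fcgr3 overlap and hold the same PU.1 match, which is counted in each. The 100 bases before the start are shown for 4 widely varying genes and for the less variable Laptm5, as examples of where the PU.1 letters stand in both sets. Capitals mark GAGGAA or its reverse complement TTCCTC, and each sequence runs 5′ to 3′ on the gene's strand.
Itgam, chr7:128062540-128062639, plus strand: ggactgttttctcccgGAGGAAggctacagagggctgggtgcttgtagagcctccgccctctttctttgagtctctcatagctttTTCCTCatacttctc
C1qb, chr4:136886201-136886300, minus strand: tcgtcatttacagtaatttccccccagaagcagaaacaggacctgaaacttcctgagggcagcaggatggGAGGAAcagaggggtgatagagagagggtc
Fcgr1, chr3:96293970-96294069, minus strand: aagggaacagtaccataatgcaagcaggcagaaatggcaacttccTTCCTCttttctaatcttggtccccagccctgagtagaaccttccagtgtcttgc
Mrc1, chr2:14229314-14229413, plus strand: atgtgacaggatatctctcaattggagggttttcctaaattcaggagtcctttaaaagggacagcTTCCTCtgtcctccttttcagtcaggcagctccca
Laptm5, chr4:130913216-130913315, plus strand: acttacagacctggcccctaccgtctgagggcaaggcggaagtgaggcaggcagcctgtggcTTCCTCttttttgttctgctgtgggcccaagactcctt
Counted from the start site, the first base of the match nearest to it lies at -15 in Itgam, -30 in C1qb, -55 in Fcgr1, -35 in Mrc1 and -38 in Laptm5. Lyz2, Cx3cr1, Folr2, Mpeg1, Ms4a6c and Fcgr2b vary widely, and the letters are not in their windows. They are likewise not in those of the less variable Fcer1g and Cd163. A match of 6 letters is a description of the sequence and no measure of binding.

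The lineage genes split between both sets. Spi1 encodes PU.1 itself. Spi1 levels were 10.17, 9.43, 10.49 and 9.65 in shRNA OS tumours 1 to 4, against 10.10, 10.48, 10.24 and 10.44 in Cre:lox OS tumours 1 to 4, and the groups overlapped, with the lowest value in shRNA OS replicate 2. Csf1r encodes the CSF1 receptor that macrophages and osteoclasts need. Csf1r levels were 11.36, 10.99, 11.48 and 10.97 in shRNA OS, against 10.79, 11.29, 11.52 and 11.70 in Cre:lox OS, with a span of 0.91 and an SD of 0.32. Cx3cr1 encodes the fractalkine receptor of monocytes and resident macrophages and varied most of the 3. Cx3cr1 levels were 10.53, 8.78, 9.06 and 8.16 in shRNA OS, against 7.97, 9.30, 10.59 and 10.75 in Cre:lox OS, high in the 3 tumours named above and lowest in the scapular Cre:lox OS replicate 1.

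Among adhesion and surface proteins, Adgre1 encodes F4/80, the classical mouse macrophage marker, and Itgam the CD11b chain of the integrin that binds complement-coated particles. Adgre1 levels were 11.19, 9.10, 9.18 and 8.07 in shRNA OS, against 9.26, 9.90, 10.98 and 11.29 in Cre:lox OS. They were at least 10.98 in the same 3 tumours and at most 9.90 in the other 5. Itgam levels were 9.68, 8.45, 8.81 and 8.21 in shRNA OS, against 8.93, 9.48, 10.40 and 10.46 in Cre:lox OS, with Cre:lox OS replicates 3 and 4 highest. Itgb2, the CD18 chain with which CD11b pairs and which all leukocytes carry, spanned 9.09 to 9.79 in shRNA OS and 9.44 to 9.57 in Cre:lox OS. Cd84, a self-binding receptor of the SLAM family, spanned 8.44 to 9.34 in shRNA OS and 8.39 to 9.06 in Cre:lox OS. The partner chains of CD11b/CD18 therefore differed in spread, with an SD over the 8 tumours of 0.85 for Itgam and 0.22 for Itgb2.

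The endolysosomal and cytoplasmic genes showed the same contrast. Lyz2 encodes the lysozyme of macrophages and neutrophils. Lyz2 levels were 12.90, 11.66, 11.35 and 10.41 in shRNA OS tumours 1 to 4, against 11.67, 12.44, 13.23 and 13.09 in Cre:lox OS tumours 1 to 4, with shRNA OS replicate 4 lowest and the same 3 tumours highest. Ctss, cathepsin S of the antigen-processing compartment, had 11.20, 9.87, 9.25 and 8.78 in shRNA OS, against 9.97, 9.88, 11.00 and 11.46 in Cre:lox OS. Mpeg1, perforin-2, a pore-forming protein of phagosomes, had 10.97, 9.80, 9.18 and 8.86 in shRNA OS, against 9.52, 10.02, 10.73 and 10.99 in Cre:lox OS. For Ctss and Mpeg1 the same 3 tumours were highest and shRNA OS replicate 4 lowest. Aif1 encodes the actin-bundling protein Iba1 and spanned 6.81 to 8.81 in shRNA OS and 7.25 to 8.67 in Cre:lox OS. Cd68, the lysosomal glycoprotein widely used to stain macrophages and also abundant in osteoclasts, ran differently. Cd68 levels were 11.65, 11.11, 12.33 and 11.60 in shRNA OS, against 12.01, 12.04, 11.86 and 11.91 in Cre:lox OS, with the highest value in shRNA OS replicate 3 and not in any of the 3 tumours high for the other genes. Laptm5, a lysosomal membrane protein of blood cells, spanned 11.09 to 12.06 in shRNA OS and 11.75 to 12.16 in Cre:lox OS.

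The Fc receptors that bind IgG were among the widely varying genes, and the adaptor genes Fcer1g and Tyrobp had smaller SDs, of 0.38 and 0.22. Fcgr1 encodes the high-affinity receptor CD64. Fcgr1 levels were 9.76, 7.92, 7.54 and 7.64 in shRNA OS tumours 1 to 4, against 8.34, 8.10, 9.65 and 10.13 in Cre:lox OS tumours 1 to 4. Fcgr2b, the inhibitory receptor, had 10.34, 8.53, 8.38 and 7.90 in shRNA OS, against 9.17, 9.02, 10.49 and 10.79 in Cre:lox OS. Fcgr3, the activating low-affinity receptor, had 9.82, 8.37, 8.31 and 7.79 in shRNA OS, against 8.28, 8.66, 9.98 and 9.98 in Cre:lox OS. For all of these genes shRNA OS replicate 1 stood well above the other shRNA OS tumours and inside the range of the Cre:lox OS tumours. Fcgr2b and Fcgr3 lie near each other on chromosome 1 and are similar in sequence, so their signals may not be fully separate. Fcer1g, the common gamma chain that signals for activating Fc receptors, spanned 10.94 to 12.10 in shRNA OS and 11.73 to 11.94 in Cre:lox OS. Tyrobp, the adaptor DAP12, spanned 11.17 to 11.63 in shRNA OS and 11.39 to 11.81 in Cre:lox OS. Trem2, a lipid-sensing receptor that signals through DAP12, varied more than its adaptor, spanning 7.94 to 9.61 in shRNA OS and 8.01 to 9.61 in Cre:lox OS.

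C1qa, C1qb and C1qc encode the 3 chains of C1q, the protein that starts the classical complement pathway and that macrophages secrete. The genes are neighbours on chromosome 4. C1qa levels were 11.04, 9.63, 9.51 and 8.77 in shRNA OS, against 9.67, 10.21, 11.22 and 11.46 in Cre:lox OS. C1qb levels were 12.51, 11.20, 11.41 and 10.63 in shRNA OS, against 11.14, 11.60, 12.63 and 12.66 in Cre:lox OS. C1qc levels were 11.94, 10.35, 10.92 and 9.66 in shRNA OS, against 10.34, 10.87, 11.80 and 12.24 in Cre:lox OS. All 3 chains had their lowest value in shRNA OS replicate 4 and their highest in Cre:lox OS replicate 4, and the other high tumours were shRNA OS replicate 1 and Cre:lox OS replicate 3.

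**Figure D2:**
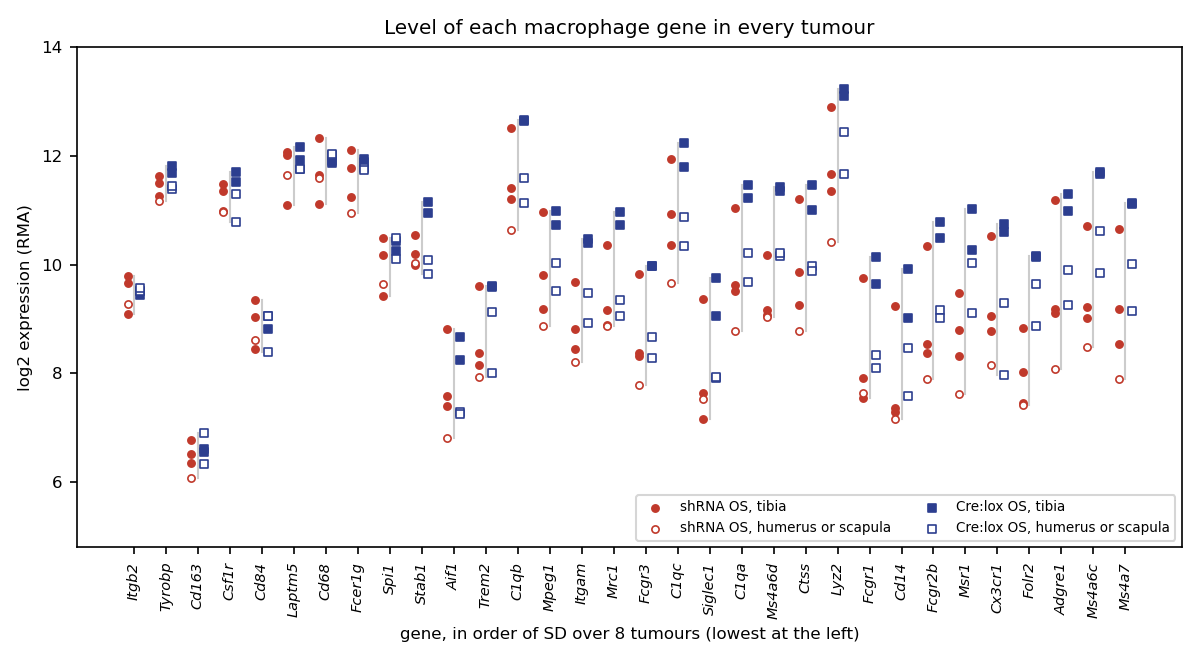
Log2 level of each of the 32 macrophage genes in the single tumours, with shRNA OS left of Cre:lox OS within each gene and tibial tumours (filled) drawn apart from humeral and scapular ones (open), and a grey line from the lowest to the highest tumour. Folr2 is the gene whose 2 models do not overlap, with 7.42 to 8.84 in shRNA OS and 8.87 to 10.15 in Cre:lox OS.

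Among the scavenger and uptake receptors was Folr2, the gene with the largest difference between the models. Folr2 encodes folate receptor beta of tissue-resident macrophages. Folr2 levels were 8.84, 7.45, 8.02 and 7.42 in shRNA OS tumours 1 to 4, against 8.87, 9.64, 10.13 and 10.15 in Cre:lox OS tumours 1 to 4, and the highest shRNA OS tumour lay just under the lowest Cre:lox OS tumour. Msr1, the class A scavenger receptor for modified lipoproteins, had 9.48, 8.79, 8.32 and 7.62 in shRNA OS, against 9.10, 10.02, 11.03 and 10.27 in Cre:lox OS, with only shRNA OS replicate 1 inside the range of the Cre:lox OS tumours. Mrc1, the mannose receptor CD206, had 10.36, 8.88, 9.17 and 8.87 in shRNA OS, against 9.05, 9.34, 10.97 and 10.73 in Cre:lox OS, and Siglec1, the sialic acid receptor CD169, had 9.36, 7.15, 7.63 and 7.52 in shRNA OS, against 7.91, 7.93, 9.05 and 9.76 in Cre:lox OS. Both were highest in shRNA OS replicate 1 and in Cre:lox OS replicates 3 and 4. Cd14, the co-receptor for bacterial lipopolysaccharide, spanned 7.16 to 9.23 in shRNA OS and 7.59 to 9.92 in Cre:lox OS. Stab1, the clearance receptor stabilin-1, which some endothelial cells also make, spanned 10.00 to 10.55 in shRNA OS and 9.82 to 11.15 in Cre:lox OS. Cd163 had values of 6.08 to 6.77 in shRNA OS and 6.34 to 6.90 in Cre:lox OS, and its order of tumours was its own, with the scapular Cre:lox OS replicate 1 highest.

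The MS4A genes encode membrane proteins with several membrane-spanning segments, and these members are used as macrophage markers. Ms4a6c levels were 10.70, 9.21, 9.02 and 8.49 in shRNA OS, against 9.84, 10.62, 11.67 and 11.71 in Cre:lox OS. Ms4a6d had 10.17, 9.07, 9.17 and 9.03 in shRNA OS, against 10.16, 10.22, 11.35 and 11.43 in Cre:lox OS. Ms4a7 had 10.66, 8.54, 9.19 and 7.89 in shRNA OS, against 9.15, 10.01, 11.13 and 11.11 in Cre:lox OS. Cre:lox OS replicates 3 and 4 were the highest tumours for all 3 genes, and shRNA OS replicates 2 to 4 had the lowest values for Ms4a6c and Ms4a6d. Both of these genes lie on chromosome 19 and are similar in sequence, so cross-reading between them is possible.

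Setting the models against each other asks whether silencing p53 with a hairpin and deleting it with Cre give tumours that differ in expression. Of the 32 macrophage genes, 31 had a lower mean in shRNA OS than in Cre:lox OS, where 48.1% of all genes did. Cd84 was the exception, with 8.86 in shRNA OS and 8.83 in Cre:lox OS. None passed an adjusted p of 0.05 in limma's moderated test over all genes, and 0.0201% of all genes did (4 of 19938). At an unadjusted p under 0.05, 5 of the 32 were lower, or 15.6%, against 6.02% of all genes. Differences of -1 or beyond were found for 8 of the 32, against 1.29% of all genes. The median difference was -0.63 over the 32 genes and 0.01 over all genes.

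The smallest adjusted p belonged to Folr2, with a mean of 7.93 ± 0.67 in shRNA OS and 9.70 ± 0.60 in Cre:lox OS (SD, n = 4 each). Its difference was -1.77 (SE 0.37), a 3.41-fold lower level in shRNA OS, with a limma adjusted p of 0.181. Folr2 was also the only macrophage gene whose models did not overlap in this direction, 3.12% of the 32 against 3.44% of all genes. Ms4a6d differed by -1.43 (SE 0.36), Msr1 by -1.55 (SE 0.46), Ms4a6c by -1.60 (SE 0.53) and Itgam by -1.03 (SE 0.40), with limma adjusted p between 0.239 and 0.446. These 4 genes and Folr2 are the 5 with an unadjusted p under 0.05. Ms4a7 had a mean 1.28 lower, Fcgr2b 1.08 lower and Lyz2 1.03 lower in shRNA OS, with SEs of 0.61, 0.56 and 0.51, and none of these passed. The C1q genes, Cd14, Adgre1, Fcgr1 and Ctss differed by -0.57 to -0.99, and their limma adjusted p lay between 0.627 and 0.791. The differences of Csf1r, Cx3cr1, Itgb2, Cd84, Laptm5, Aif1 and Cd163 were smaller than their SEs, so no direction is read for them.

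**Figure D3:**
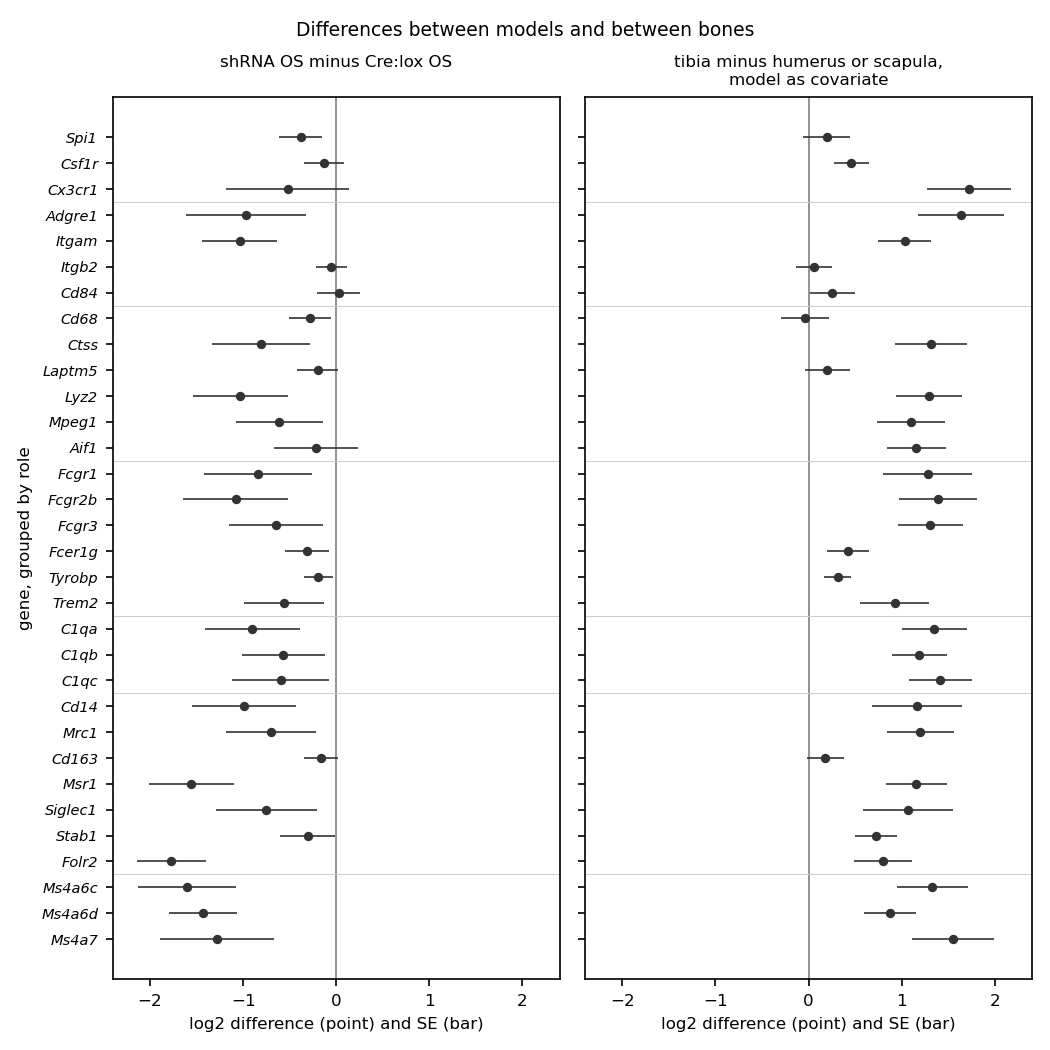
Log2 difference of each macrophage gene with its standard error, as shRNA OS minus Cre:lox OS (left panel) and as tibial minus humeral or scapular tumours with the model as a covariate (right panel). Differences between models centre on a median of -0.63 and those between sites on 1.13, and no gene passed an adjusted p of 0.05 in either panel.

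Single tumours carried much of the size of the model difference. Its median over the 32 genes was -1.04 with shRNA OS replicate 1 left out and -0.98 with Cre:lox OS replicate 1 left out. Leaving out shRNA OS replicate 4 gave -0.38, leaving out Cre:lox OS replicate 3 gave -0.42, and leaving out Cre:lox OS replicate 4 gave -0.39. Between 29 and 32 of the genes stayed lower in shRNA OS in these and all other settings run. The models also differed in site, since 3 shRNA OS tumours were tibial and 2 Cre:lox OS tumours were. Among tibial tumours alone, 31 of the 32 genes were lower in shRNA OS, with a median of -1.13, and among the other tumours 31 were lower, with a median of -0.71. No share over all genes was taken for either count, and the 32 genes vary together. Genes of other cells moved with the model too. Lower means in shRNA OS were found for 9 of 12 fibroblast genes (median -0.78) and 11 of 11 skeletal muscle genes (median -0.66), with the log2 of the summed fibroblast level from 12.64 to 13.86 in shRNA OS and from 13.58 to 14.75 in Cre:lox OS. For muscle it ran from 10.95 to 14.28 in shRNA OS and from 11.48 to 14.14 in Cre:lox OS, and the part of either cell type was not tested. With site as a covariate the median was -0.96, and the limma adjusted p of Folr2 was 0.0606 (difference -1.97). In the 6 Rbfl/+ tumours, where each model held 2 tibial tumours and 1 humeral, the median was -0.89 and the limma adjusted p of Folr2 was 0.0595 (difference -1.88).

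The tumours also differed in the bone they grew in. Of the 32 macrophage genes, 31 had a higher level in tibial tumours than in humeral or scapular ones with the model as a covariate, where 44.5% of all genes did. None passed an adjusted p of 0.05 in limma's moderated test, and 0% of all genes did (0 of 19938). At an unadjusted p under 0.05, 23 of the 32 were higher in tibial tumours, or 71.9%, against 2.32% of all genes. Differences of 1 or more were found for 19 of the 32, against 0.888% of all genes. The median difference was 1.13 over the 32 genes and -0.03 over all genes.

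The C1q genes had the smallest p-values among the 32. C1qc averaged 11.45 in the 5 tibial tumours and 10.29 in the other 3, a difference of 1.41 (SE 0.34) with the model as a covariate and a limma adjusted p of 0.647. C1qb differed by 1.19 (SE 0.30) and C1qa by 1.35 (SE 0.35), both with a limma adjusted p of 0.672. Cx3cr1 had the largest difference, 1.72 (SE 0.45), followed by Adgre1 with 1.64 (SE 0.46) and Ms4a7 with 1.55 (SE 0.44). The Fc receptor genes Fcgr1, Fcgr2b and Fcgr3 differed by 1.28, 1.39 and 1.31, and Lyz2 and Ctss by 1.29 and 1.31. Aif1 was the only one of the 32 with no overlap in this direction, at 7.39 to 8.81 in tibial tumours and 6.81 to 7.29 in the others, against 0.607% of all genes. Among the less variable genes, Stab1 differed by 0.72 (SE 0.22), Csf1r by 0.46 (SE 0.19), Fcer1g by 0.42 (SE 0.22) Tyrobp by 0.31 (SE 0.15) and Cd84 by 0.26 (SE 0.24). The differences of Spi1, Itgb2, Cd68, Laptm5 and Cd163 were smaller than their SEs.

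Most of the 32 genes had the same direction within both models. They vary together, and no share over all genes was taken for the counts within models or in Rbfl/+ tumours alone. Within shRNA OS, all 32 genes were higher on average in the 3 tibial tumours than in the humeral one, with a median of 0.77. Within Cre:lox OS, 29 of 32 were higher in the 2 tibial tumours than in the other 2, with a median of 1.19. Whether the site difference itself differed between models cannot be decided here, because 1 shRNA OS tumour, the humeral replicate 4, was not tibial. That tumour was also the lowest for 22 of the 32 genes. Leaving out each tumour in turn kept the median between 0.92 and 1.24, and in the Rbfl/+ tumours alone it was 1.04 with all 32 genes higher. All 3 non-tibial tumours counted here are from the forelimb or shoulder, so a tibial difference cannot be told apart from one between limbs. Fibroblast genes moved with site as well. Of 12, 10 were higher in tibial tumours, with a median of 0.80, led by the matrix proteoglycan genes Lum (2.78, SE 0.29, limma adjusted p 0.104) and Dcn (2.59, SE 0.39). The log2 of their summed level ran from 13.38 to 14.75 in tibial tumours and from 12.64 to 13.69 in the others, and of 11 skeletal muscle genes all were higher in tibial tumours, with a median of 0.75. The part of either cell type in the site difference was not tested.

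For the Rb genotype, 31 of the 32 genes had a higher mean in the 6 Rbfl/+ tumours than in the 2 Rb+/+ tumours, in a fit that held the model fixed, where 47% of all genes did. None passed an adjusted p of 0.05 in limma's test, and 0% of all genes did. At an unadjusted p under 0.05, 4 of the 32 were higher in Rbfl/+ tumours, against 3.09% of all genes, and 1 was lower, against 1.64%. The median difference was 0.62, against -0.02 over all genes. Cd84 was 8.62 to 9.34 in Rbfl/+ tumours, against 8.39 and 8.44 in the Rb+/+ tumours, a difference of 0.58 (SE 0.20). Folr2 differed by 0.87 (SE 0.34) and Csf1r by 0.50 (SE 0.20). Cd163 went the other way, with 6.08 to 6.60 in Rbfl/+ tumours, against 6.77 and 6.90 in the Rb+/+ tumours and a difference of -0.43 (SE 0.17). All of its values lay below every array median. Each of these 4 genes had a limma adjusted p of 0.836. Cd84 and Cd163 did not overlap between genotypes, where 2.31% of all genes did so with higher and 2.33% with lower values in Rbfl/+ tumours. Of the 2 Rb+/+ tumours, shRNA OS replicate 2 gave the array that correlated least with the others and whose values spread least. Without shRNA OS replicate 2 the median difference was 1.03, and without Cre:lox OS replicate 1, the other Rb+/+ tumour, it was 0.36. Site was not in the main fit. Cre:lox OS replicate 1 was also the only scapular tumour, so within Cre:lox OS the genotype cannot be told apart from that bone. Alternatives that kept every tumour of the set chosen included a fit with site as a further covariate. In these 31 genes were higher in Rbfl/+ tumours, with medians of 0.45 to 1.05.

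The genes of osteoclasts, the bone-resorbing relatives of macrophages, ran against the macrophage genes across tumours. With each of 14 osteoclast genes centred on its mean, their mean was -1.34, 0.17, 0.85 and 0.53 across shRNA OS tumours 1 to 4, and 0.56, 0.61, -0.64 and -0.74 across Cre:lox OS tumours 1 to 4. For 11 of the 14 the lowest 3 tumours were shRNA OS replicate 1 and Cre:lox OS replicates 3 and 4, the tumours in which most macrophage genes were highest. Named after its values were seen, Acp5, the tartrate-resistant acid phosphatase of osteoclasts, had 11.15, 13.49, 13.62 and 13.53 in shRNA OS tumours 1 to 4, against 13.34, 13.31, 12.16 and 12.24 in Cre:lox OS tumours 1 to 4. Mmp9, the gelatinase that osteoclasts secrete, also named after its values were seen, had 10.12, 12.96, 13.30 and 13.12 in shRNA OS, against 13.19, 13.16, 11.52 and 11.40 in Cre:lox OS. Each was lowest in shRNA OS replicate 1, followed by Cre:lox OS replicates 3 and 4, and the other 5 tumours lay close together. The log2 of the summed level of the 14 genes ran from 13.34 to 15.66 in shRNA OS and from 14.12 to 15.39 in Cre:lox OS. By site it ran from 13.34 to 15.66 in tibial tumours and from 15.34 to 15.39 in the others.

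Between models, 10 of the 14 osteoclast genes were higher and 4 lower in shRNA OS, with a median of 0.02, and Clcn7 and Tnfrsf11a had the smallest p (differences of -0.39 and -0.29). Between sites, 13 of 14 were lower in tibial tumours, with a median of -0.97. Car2, the carbonic anhydrase that osteoclasts use to make acid, differed by -1.82 (SE 0.39) and Ocstamp, which osteoclast precursors need to fuse, by -1.66 (SE 0.62), with limma adjusted p of 0.616 and 0.799. None of the 14 passed in any comparison. Csf1r, Spi1, Tyrobp, Fcer1g and Cd68, given as examples from the less variable set, are genes that osteoclasts are known to express as well. The other genes of that set and the widely varying genes, Trem2 among them, were not sorted in this way. Whether osteoclast RNA had a part in the level of any of these genes was not tested.

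**Figure D4:**
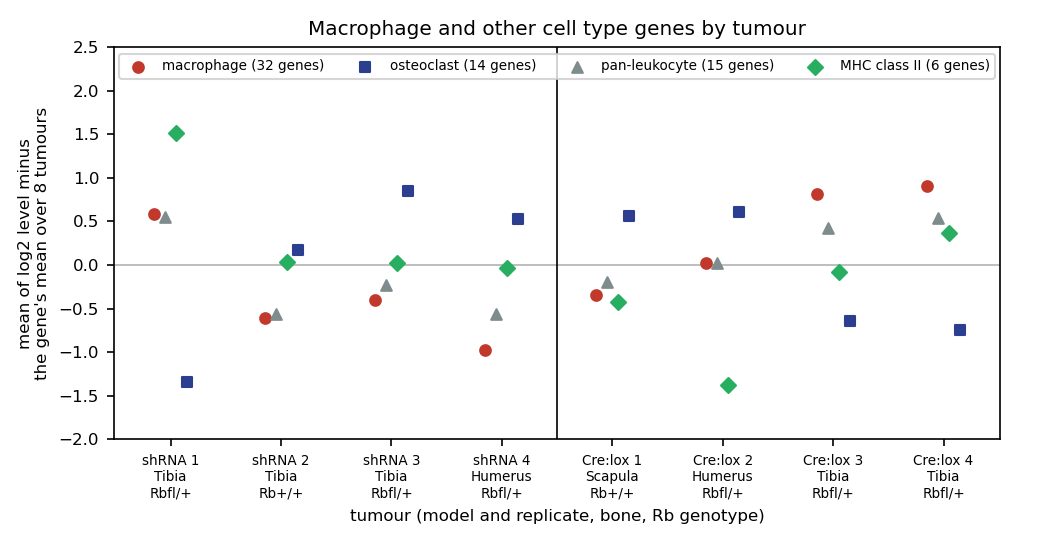
Mean of centred log2 levels per tumour, shRNA OS left of Cre:lox OS, for the 32 macrophage genes and for the lists of other cells named in the legend. The macrophage genes and the 14 osteoclast genes lie on opposite sides of 0 in shRNA OS replicate 1 (0.59 and -1.34) and in Cre:lox OS replicates 3 (0.81 and -0.64) and 4 (0.91 and -0.74).

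Genes on a pan-leukocyte list, some of them genes of phagocytes, mostly followed the macrophage genes. The mean centred level of 15 pan-leukocyte genes was 0.55, -0.56, -0.23 and -0.56 across shRNA OS tumours 1 to 4, and -0.19, 0.02, 0.42 and 0.54 across Cre:lox OS tumours 1 to 4. For 9 of the 15 the highest 3 tumours were those named above. That held for 0 of 11 dendritic cell, 0 of 8 mast cell, 0 of 14 T and NK cell and 1 of 9 B cell genes. Most genes of those 4 lists had means below every array median. Of the 15 pan-leukocyte genes, 14 were lower in shRNA OS, with a median of -0.38, and 13 were higher in tibial tumours, with a median of 0.63. Ncf4, a subunit of the phagocyte NADPH oxidase, and Cd53, a leukocyte tetraspanin, differed by -0.97 and -0.79 between models. Cd48 and Ptprc, which encodes CD45, differed by 0.97 and 0.88 between sites. None passed in either comparison.

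Most neutrophil genes were dim, with 12 of 13 below every array median in every tumour. The exception, Csf3r, the receptor for the growth factor G-CSF, had 8.03, 6.80, 6.73 and 6.70 in shRNA OS tumours 1 to 4, against 7.24, 7.07, 7.54 and 8.86 in Cre:lox OS tumours 1 to 4. It was highest in the same 3 tumours as most macrophage genes. The mean centred level of 13 neutrophil genes stayed between -0.21 and 0.32, and the log2 of their summed level ran from 9.82 to 10.08 in shRNA OS and from 9.75 to 10.45 in Cre:lox OS. S100a8, the calprotectin subunit abundant in neutrophils, was between 5.75 and 6.42 in every tumour, below all array medians, and Ly6g was between 5.44 and 6.27. Of the 13, 8 were higher and 5 lower in shRNA OS (median 0.03, mean -0.06), and 10 were higher in tibial tumours (median 0.22).

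The growth factors and chemoattractants that bring in and maintain macrophages had lower means in shRNA OS for 13 of 15 genes, with a median of -0.35. Anxa1, annexin A1, which acts on formyl peptide receptors, was lower by 1.33 (SE 0.26) with a limma adjusted p of 0.150. Its models did not overlap, where 3.44% of all genes were separated with lower values in shRNA OS. Ccl2, the chemokine that recruits monocytes through CCR2, had 9.50, 7.49, 7.35 and 7.69 in shRNA OS tumours 1 to 4, against 8.72, 9.04, 9.85 and 10.76 in Cre:lox OS tumours 1 to 4. Its highest 3 tumours were those of most macrophage genes, which held for 3 of the 15 genes on this list. The Ccl2 difference between models was -1.59 (SE 0.55). Between sites 11 of 15 were higher in tibial tumours, with a median of 0.19, and Ccl7 and Ccl12, which also act on CCR2, differed by 1.50 (SE 0.44) and 1.14 (SE 0.37). Receptors for such factors were lower in shRNA OS for 9 of 9 genes, with a median of -0.83, among them Cxcr4 (-0.94, SE 0.33) and Ccr1 (-0.83, SE 0.30). Between sites 8 of the 9 were higher in tibial tumours, with a median of 0.50, and the complement receptors C5ar1 and C3ar1 differed by 1.09 and 1.21. No gene of either list passed.

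Signalling genes downstream of immunoreceptors were lower in shRNA OS for 13 of 15, with a median of -0.36. Pirb, an inhibitory receptor, differed by -0.96 (SE 0.31) and Fgr, a Src-family kinase of myeloid cells, by -0.58 (SE 0.19). In tibial tumours 14 of the 15 were higher, with a median of 0.56. Clec4n, which encodes the fungal receptor dectin-2, differed by 1.71 (SE 0.33) and Vav1, a signalling protein of blood cells, by 1.00 (SE 0.30). Of 13 myeloid transcription factors, 9 were lower in shRNA OS (median -0.14) and 7 higher in tibial tumours (median 0.11). Mitf and Cebpb had the smallest p between models, at -0.56 and -0.50, and Klf4 and Ikzf1 between sites, at -0.67 and 0.95. None of these genes passed in either comparison.

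Effector lists were mixed. Of 15 complement and efferocytosis genes, which serve the clearance of dying cells, 11 were lower in shRNA OS (median -0.30), with the smallest p for Cd47 (-0.36) and Havcr2 (-0.74). In tibial tumours 11 were higher (median 0.21), with the smallest p for Sirpa (0.46) and Havcr2 (0.58). Of 16 lysosomal genes, 10 were lower in shRNA OS (median -0.12), and Lamp1 and Lamp2, the main lysosomal membrane glycoproteins, differed by -0.77 and -0.46. For both the models did not overlap, where 3.44% of all genes were separated with lower values in shRNA OS. In tibial tumours 11 were higher (median 0.24), with the cathepsin genes Ctsc at 1.17 and Ctsb at 0.52. Of 13 genes of lipid-laden and tumour-associated macrophages, 11 were lower in shRNA OS (median -0.50). Fabp5, a fatty acid carrier that many cell types make, had 8.50, 8.11, 8.18 and 7.74 in shRNA OS tumours 1 to 4, against 9.28, 10.02, 10.19 and 9.65 in Cre:lox OS tumours 1 to 4. Its models did not overlap, again against 3.44% of all genes. The Fabp5 difference of -1.65 (SE 0.23) had a limma adjusted p of 0.0668, which misses 0.05 and would pass at 0.10. Plin2, which coats lipid droplets, differed by -1.04 (SE 0.18). In tibial tumours 10 were higher (median 0.38), with Ms4a4a at 1.49 (SE 0.35) and Apoe at 1.55 (SE 0.42). None of the genes of these lists passed at 0.05.

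Genes of inflammatory and of alternatively activated macrophages were set side by side. Means below every array median were found for 6 of the 16 inflammatory genes and for 9 of the 13 alternative activation genes. Of 16 inflammatory genes, 13 were lower in shRNA OS (median -0.27), with Il1rn, the interleukin-1 receptor antagonist, at -0.70 (SE 0.20) and Nos2, the inducible nitric oxide synthase, at -0.42 (SE 0.15). In tibial tumours 14 were higher (median 0.44). Ptgs2, cyclooxygenase-2, had 9.50, 8.11, 8.22 and 7.07 in shRNA OS, against 8.99, 8.42, 11.05 and 11.26 in Cre:lox OS, a site difference of 2.06 (SE 0.36), and Nlrp3, the inflammasome sensor, differed by 0.81 (SE 0.21). The inflammatory list also holds genes that restrain inflammation, Il1rn and the cytokine gene Il10. Il10, named after its values were seen, differed by 0.39 (SE 0.18) between models and by -0.39 (SE 0.16) between sites. Its means, 5.57 in shRNA OS, 5.18 in Cre:lox OS, 5.28 in tibial tumours and 5.53 in the others, lay below every array median. Of 13 alternative activation genes, 6 were lower and 7 higher in shRNA OS, with a median of 0.07 and a mean of -0.12, and Il4ra and Vegfa had the smallest p, at -1.01 (SE 0.33) and -0.61 (SE 0.23). In tibial tumours 9 were higher (median 0.13), with Igf1, insulin-like growth factor 1, at 0.93 (SE 0.18) and the lectin gene Mgl2 at 0.66. Neither overlapped between sites, where 0.607% of all genes were separated with higher values in tibial tumours. The Mgl2 means, 6.42 in tibial tumours and 5.70 in the others, lay below every array median. None passed, and the 2 lists were not tested against each other.

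Among all genes with an SD of at least 0.5 over the 8 tumours, 127 of 2542 had a Pearson correlation of 0.9 or more with the mean of the macrophage genes. The 15 highest, given as a description over 8 tumours that share arrays, were Vav1, Tlr7, Tlr8, Celf2, Plxnc1, P2ry6, Ms4a6b, Dock2, Milr1, Tlr13, Clec4n, Arrb2, Cysltr1, Arhgap45 and Alox5ap, with correlations of 0.979 to 0.996. Tlr7, Tlr8 and Tlr13 encode endosomal receptors for RNA, and Dock2 and Vav1 encode activators of Rac in blood cells. Alox5ap and Cysltr1 belong to the leukotriene pathway, as the protein that presents substrate to 5-lipoxygenase and as a leukotriene receptor.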

How the data were processed

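RNA from 8 primary tumours was hybridised to 1-colour arrays, 1 array a tumour, after Trizol homogenisation and purification on RNeasy columns, per the labels' protocols. The deposited table holds log2 expression levels. Per the submitters' processing notes the authors obtained them with RMA, a background correction, normalization and summary of probes, and used build mm9. The RMA version is not given in the sources used here. RMA puts the arrays on a similar scale but the deposited arrays did not share 1 distribution, so array differences can enter a comparison. No detection calls were used, and the number of arrays limits the precision.

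Of 35556 probe sets, 21789 had 1 gene symbol in the platform annotation, 1621 several and 12146 none listed. Those with 1 symbol were used, with the highest mean chosen among probe sets of a gene, leaving 19938 genes. A RefSeq gene table (GRCm38.p6) held the IDs of all 32 macrophage genes under the same symbols but belongs to another build, and served for names, neighbours and promoter sequence, matched by gene.

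Differences were fitted over all genes by lmFit and eBayes of limma 3.58.1, run in R 4.3.3, and p-values were adjusted by the Benjamini-Hochberg method and called under 0.05. The model comparison had no covariate, and those of site and Rb genotype had the model. No filter on low values was applied. All 32 genes had means above the 25th percentile. The labels give no batch. Each title numbers its tumour separately, so p-values measure the spread between tumours. No 2 arrays were identical. The fit was tested on simulated data.

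The 32 genes and the 24 gene lists (the 32 among them, 4 genes on 2 lists) were chosen with earlier results of these data known. All 32 could be named for model and site, the 3 of smallest p per direction for Rb genotype, the 2 of smallest p per list and comparison, and the 15 genes most correlated with the mean of the 32. Alternatives were other normalizations, array weights, eBayes settings, the mean of a gene's probe sets, a filter on dim genes, another threshold, other covariates, subsets of tumours, and leaving out each tumour in turn.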

Additional observations from a re-analysis of the deposited data

Results flagged for a closer look

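Within the shRNA OS group, replicate 1 lay far from the other 3 tumours for 3 macrophage genes, by the gap to its nearest neighbour as a share of the group's range. Cd14 was 9.23 there, against 7.16 to 7.36 in the other 3 (gap ratio 0.902). Ms4a6d was 10.17, against 9.03 to 9.17 (gap ratio 0.880). Fcgr1 was 9.76, against 7.54 to 7.92 (gap ratio 0.830). The criterion for 4 samples is 0.829, and 66 groups of 4 tumours were examined, where chance flags about 1 in 20. Chance would thus give 3.3 on average, and 3 were found. The genes vary together over the same tumours, and all 3 flags lie in shRNA OS replicate 1. These counts therefore cannot decide whether the flags arose by chance.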

How the results depend on the processing

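Across the alternatives run, every macrophage gene whose difference is printed kept its direction and stayed on its side of the threshold, and none passed. In the model comparison the median of the 32 genes was -1.13 to -0.39 over alternatives that kept every tumour of the set chosen and -1.04 to -0.38 when a tumour was left out. The smallest adjusted p among the 32 was 0.0572 to 0.398 (limma). In the site comparison the median was 0.81 to 1.18, and 0.92 to 1.24 without single tumours. For the Rb genotype it was 0.45 to 1.05, and 0.36 to 1.03 without single tumours, where 27 to 31 genes were higher in Rbfl/+ tumours. The number of all genes past the threshold between models, 4, was 24 at a threshold of 0.10, 21 with quantile normalization, 9 with median centring, 19 with array weights, 13 with site as a covariate, 2 in tibial tumours alone and 19 in Rbfl/+ tumours with site. Leaving out single tumours gave 0 to 42, and for site 0 to 1. The cause was not tested. No paired analysis was possible because the labels give no replicate numbers that the models share. With 2 Rb+/+ tumours, the Rb comparison rests on 1 of them whenever the other is left out. At an unadjusted p under 0.05 limma called 1920 of 19938 genes between models, 1125 for site and 943 for Rb genotype. Where there is no difference, this cut calls a share of about 0.05 of the genes tested.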

Other observations

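MHC class II genes, which serve antigen presentation, followed the order of tumours seen for the macrophage genes only in part. For 2 of the 6 the highest 3 tumours were shRNA OS replicate 1 and Cre:lox OS replicates 3 and 4. The mean centred level of 6 MHC class II genes was 1.51, 0.03, 0.02 and -0.04 across shRNA OS tumours 1 to 4, and -0.42, -1.38, -0.08 and 0.37 across Cre:lox OS tumours 1 to 4. All 6 were highest in shRNA OS replicate 1, and 5 were lowest in the humeral Cre:lox OS replicate 2, where the macrophage genes lay at their mean (0.02). All 6 had a higher mean in shRNA OS, with a median of 0.87, while 31 of the 32 macrophage genes had a lower one. Cd74, the invariant chain that escorts class II molecules, was 11.15 in shRNA OS and 9.82 in Cre:lox OS, a difference of 1.33 (SE 0.45), and H2-Eb1 differed by 0.88 (SE 0.47). In tibial tumours all 6 were higher, with a median of 0.90, and H2-Ab1 and H2-Aa differed by 1.09 and 1.05. None passed, and the 2 lists were not tested against each other.

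Of 9 monocyte genes, 7 had lower means in shRNA OS (median -0.19, mean -0.70). F13a1, coagulation factor XIII A, differed by -1.99 (SE 0.37, limma adjusted p 0.134) and Vcan, the proteoglycan versican, which stromal cells also make, by -2.39 (SE 0.56). All 9 were higher in tibial tumours (median 0.18), with F13a1 at 0.89 and Vcan at 1.23. Between models the medians were 0.02 for 11 dendritic cell genes, 0.08 for 8 mast cell genes, 0.10 for 14 T and NK cell genes, 0.08 for 9 B cell genes and 0.03 for 7 erythroid genes. Their medians between sites were 0.12, 0.08, 0.14, 0.05 and -0.12 in the same order. Means below every array median were found for 7, 7, 11, 7 and 3 of these genes, again in that order. Of 12 endothelial genes, 10 were higher in shRNA OS (median 0.21) and all 12 lower in tibial tumours (median -0.20). Of 9 osteoblast genes, 7 were higher in shRNA OS (median 0.54) and 8 lower in tibial tumours (median -0.36). No gene of these lists passed.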
